A study of Homo sapiens with 1 sample.

Results

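The genes examined here encode the Wnt ligands, their receptors and the secreted proteins that modulate them. All protein-coding genes of GENCODE release 44 were taken whose symbol is WNT, FZD, DKK, SFRP or RSPO followed by a digit, together with LRP5, LRP6, LGR4, LGR5, LGR6, AXIN1, AXIN2, WLS and PORCN, which gave 50 of 20033 genes. Their chromatin accessibility was read from the ATAC-seq peaks of 786-O cells that carried an empty vector. ATAC-seq uses the Tn5 transposase to cut open DNA, and 786-O is an established human line of clear cell renal cell carcinoma. These cells were the control for cells that overexpressed DPF3a, part of a SWI/SNF chromatin remodeller, which are not analysed here. The label calls the sample an empty vector control, while the peak names inside the list carry a wild-type tag, and whether a selected clone or a pool was used is not given in the sources used here. There was 1 library and no replicate, so no test between groups was possible and no p-value is given.

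Wnt proteins are secreted ligands that PORCN modifies with a lipid and WLS carries to the cell surface. They bind Frizzled (FZD) receptors and the co-receptors LRP5 and LRP6, which releases beta-catenin from a destruction complex that the AXIN proteins hold together. DKK proteins act on the co-receptors, SFRP proteins bind the ligands themselves, and R-spondins (RSPO) with their receptors LGR4 to LGR6 keep Frizzled proteins at the membrane. In the developing kidney, WNT9B and WNT4 induce the nephron, WNT11 acts at the ureteric tip and WNT7B in the collecting duct.

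The list held 88615 peaks on the 24 primary chromosomes. The value of a peak is its fold enrichment, the depth at the summit plus 1 over the genome-wide background of 0.941 plus 1. The depth at the summits, the pileup, ran from 9 to 300, and the median fold of all peaks was 10.8. Each fold is given with a 95% interval of its pileup, which covers counting error only, and a summit is by its choice the highest point of its peak, so the pileup there is biased upward. A gene without a peak is a gene for which none was listed, and the lowest listed fold was 5.15. The methods give a q cutoff of 0.05, a score of about 13, whereas the deposited list starts at a score of 52, so weaker peaks may have been called and not listed. Of the renal and clear cell markers, PAX8, PAX2, EPAS1 and CUBN had a promoter peak, with folds of 31.9, 22.7, 21.6 and 5.15, whereas LHX1, CA9 and CDH6 had none. Of 11 markers of blood, liver, pancreas, endothelium, muscle and nerve, GFAP alone had a promoter peak (fold 36.1).

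To show the DNA that the results turn on, the 100 bases before the annotated start are given for a few genes, chosen after their values were seen (RefSeq promoter table, GRCh38.p14). Of the 50 genes, 34 had an entry there, and WNT7B and AXIN2 were among those without one. Each sequence runs 5′ to 3′ on the strand of its gene, and capitals mark matches on either strand to the searched motifs, namely GGGCGG (SP/KLF), CCAAT (the CCAAT box) and GGAATG (TEAD) where they occur here. Neighbouring matches to GGGCGG overlap in FZD5. The first 5 genes had a promoter peak and the last 4 had none.
FZD1, chr7:91264333-91264432, plus strand: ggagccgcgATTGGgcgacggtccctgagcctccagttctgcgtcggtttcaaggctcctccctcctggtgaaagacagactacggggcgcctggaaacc
FZD5, chr2:207769907-207770006, minus strand: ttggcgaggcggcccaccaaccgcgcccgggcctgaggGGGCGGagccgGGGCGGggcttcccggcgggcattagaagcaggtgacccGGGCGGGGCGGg
FZD8, chr10:35642297-35642396, minus strand: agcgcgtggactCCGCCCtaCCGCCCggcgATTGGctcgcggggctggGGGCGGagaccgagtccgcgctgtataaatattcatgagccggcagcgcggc
FZD4, chr11:86955396-86955495, minus strand: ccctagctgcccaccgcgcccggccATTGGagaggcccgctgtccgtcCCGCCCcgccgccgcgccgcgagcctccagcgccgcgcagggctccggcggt
LGR4, chr11:27472791-27472890, minus strand: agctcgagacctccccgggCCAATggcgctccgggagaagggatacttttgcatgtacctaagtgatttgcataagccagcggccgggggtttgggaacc
DKK1, chr10:52314181-52314280, plus strand: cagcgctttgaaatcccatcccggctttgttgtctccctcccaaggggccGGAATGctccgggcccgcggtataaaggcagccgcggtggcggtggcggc
WNT3A, chr1:228006898-228006997, plus strand: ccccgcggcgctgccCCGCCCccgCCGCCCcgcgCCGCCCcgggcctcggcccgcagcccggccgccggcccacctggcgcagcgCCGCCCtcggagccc
LRP5, chr11:68312491-68312590, plus strand: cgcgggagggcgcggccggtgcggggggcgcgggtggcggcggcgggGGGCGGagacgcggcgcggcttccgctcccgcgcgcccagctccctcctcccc
SFRP5, chr10:97772000-97772099, minus strand: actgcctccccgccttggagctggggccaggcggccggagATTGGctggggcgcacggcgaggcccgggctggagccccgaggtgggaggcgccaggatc

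G or C made up 64.0% of these bases at FZD1, 80.0% at FZD5, 70.0% at FZD8, 82.0% at FZD4 and 59.0% at LGR4, and 67.0% at DKK1, 92.0% at WNT3A, 88.0% at LRP5 and 77.0% at SFRP5. The CCAAT box was found in 11 of the 34 genes with an entry, compared with 18.7% of the 27305 RefSeq promoters. These were 5 of 14 genes with a promoter peak (FZD1, FZD4, FZD8, LGR4 and PORCN) and 6 of 20 without one (SFRP2, SFRP5, WNT3, WNT8B, WNT9B and WNT16). GGGCGG was found in 18 of the 34, 8 of the 14 and 10 of the 20, compared with 31.3% of all. The letters CTTTGAT of the TCF/LEF factors, through which beta-catenin acts on its target genes, were in none of the 34 and in 0.791% of all. Only this exact word was searched, so related words were not counted, such as CTTTGAA in the DKK1 sequence above.

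Promoter peaks, with the summit between 1 kb upstream and 100 bp downstream of any transcription start site (TSS) of the gene, were found at 22 of the 50 genes, or 44.0% (exact 95% interval, 30.0 to 58.7). Over all protein-coding genes the share was 61.4%. With other settings the count ran from 18 to 31: 19 with a score above 100 (57.5% of all protein-coding genes), 18 above 200 (52.0%), 20 at the canonical TSS alone (52.2%), 24 with 1 kb and 31 with 2.5 kb to both sides (65.7% and 70.3%), and 23 by overlap of the whole peak (65.7%). A promoter peak was found at 9 of 12 receptor genes (75.0%; 42.8 to 94.5) and at 6 of 19 ligand genes (31.6%; 12.6 to 56.6). The R-spondins and LGR receptors had 1 of 7 (14.3%; 0.361 to 57.9), the secreted antagonists 2 of 8 (25.0%; 3.19 to 65.1), and the genes for ligand secretion and AXIN 4 of 4. The groups are small and related in sequence, and the intervals of ligands and receptors overlap between 42.8% and 56.6%, so the groups were described and not tested against each other. All intervals of shares treat the genes or windows as independent draws. They do not cover variation between libraries.

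**Figure D1:**
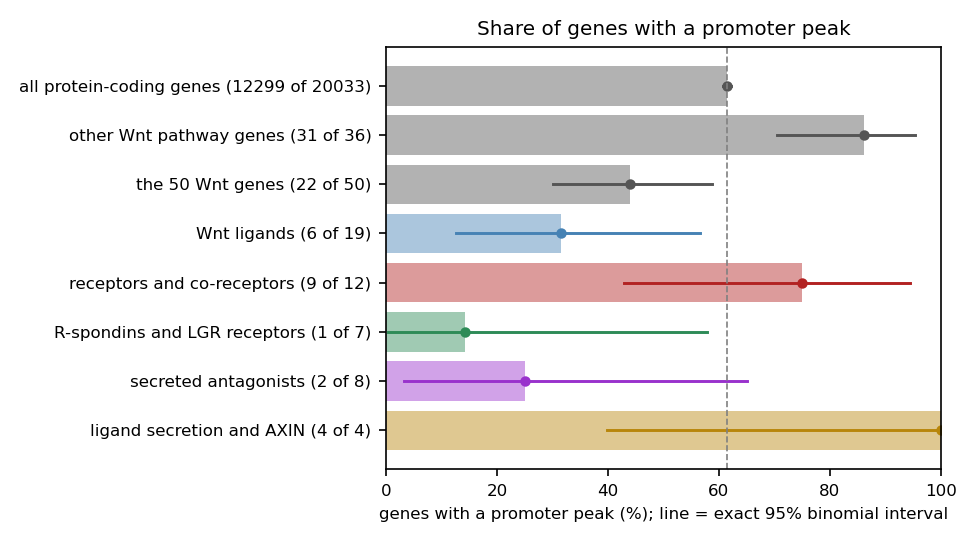
Share of genes with a promoter peak (x axis, %) in all protein-coding genes, in other genes of the Wnt pathway and in the 50 genes by role. Bars and points give the share, lines its exact 95% binomial interval and the dashed line the 61.4% of all protein-coding genes. The receptors lie above that line at 75.0% and the ligands below it at 31.6%.

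Frizzled receptor genes held the 3 strongest promoter peaks of the set. FZD1 (ENSG00000157240.4) on chromosome 7 (91264433 to 91271326) had a peak from 91263355 to 91265870 and reached a fold of 122 (95% interval, 107 to 138) at a pileup of 235. Its summit was 50 bp before the TSS. It was higher than 99.9% of all promoter summits and than 99.4% of those on chromosome 7. FZD5 (ENSG00000163251.4) on chromosome 2 (207762598 to 207769906) followed with a fold of 82.4 (70.2 to 96.2). The summit was 2 bp before the TSS, at the last base of the GGGCGG matches shown above. The peak was 2212 bp wide, and how exactly its summit is placed was not tested. FZD8 (ENSG00000177283.8) on chromosome 10 had a fold of 46.4 (37.3 to 57.0) with the summit 49 bp downstream of the TSS, in its exon. This summit also lay at the promoter of MIR4683. FZD8 had a weak peak of fold 6.70 further upstream. The intervals of FZD1, FZD5 and FZD8 do not overlap each other, but they cover counting error only. The genes lie on different chromosomes and share 1 genome-wide background, and a difference in copy number was not tested.

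The other Frizzled genes with a promoter peak had lower values, and the intervals of neighbours in this order overlap. The fold was 35.6 (27.7 to 44.9) at FZD4, whose peak also lay at the promoter of the divergent transcript FZD4-DT, and 31.9 (24.6 to 40.9) at FZD6, shared with BAALC-AS1. It was 22.2 at FZD7, 17.0 at FZD3 and 12.9 (8.44 to 18.9) at FZD2, the lowest of the receptors. The FZD7 summit also lay at the promoter of another annotated gene, ENSG00000273209. The co-receptor gene LRP6 had a fold of 21.1 (15.2 to 28.6), with the summit 118 bp downstream of its canonical TSS and 86 bp downstream of another.

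Receptors without a promoter peak were FZD9, FZD10 and LRP5. The nearest summit to a TSS was 2476 bp away at FZD9 and 24571 bp away at FZD10. At LRP5 a summit lay 340 bp downstream of the TSS of a late transcript, in intron 22 of the canonical one, while the summit nearest to the canonical TSS was 2216 bp away. Its promoter, shown above, was the richest of the set in G or C (86.7% over 250 bases before to 50 after the TSS).

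**Figure D2:**
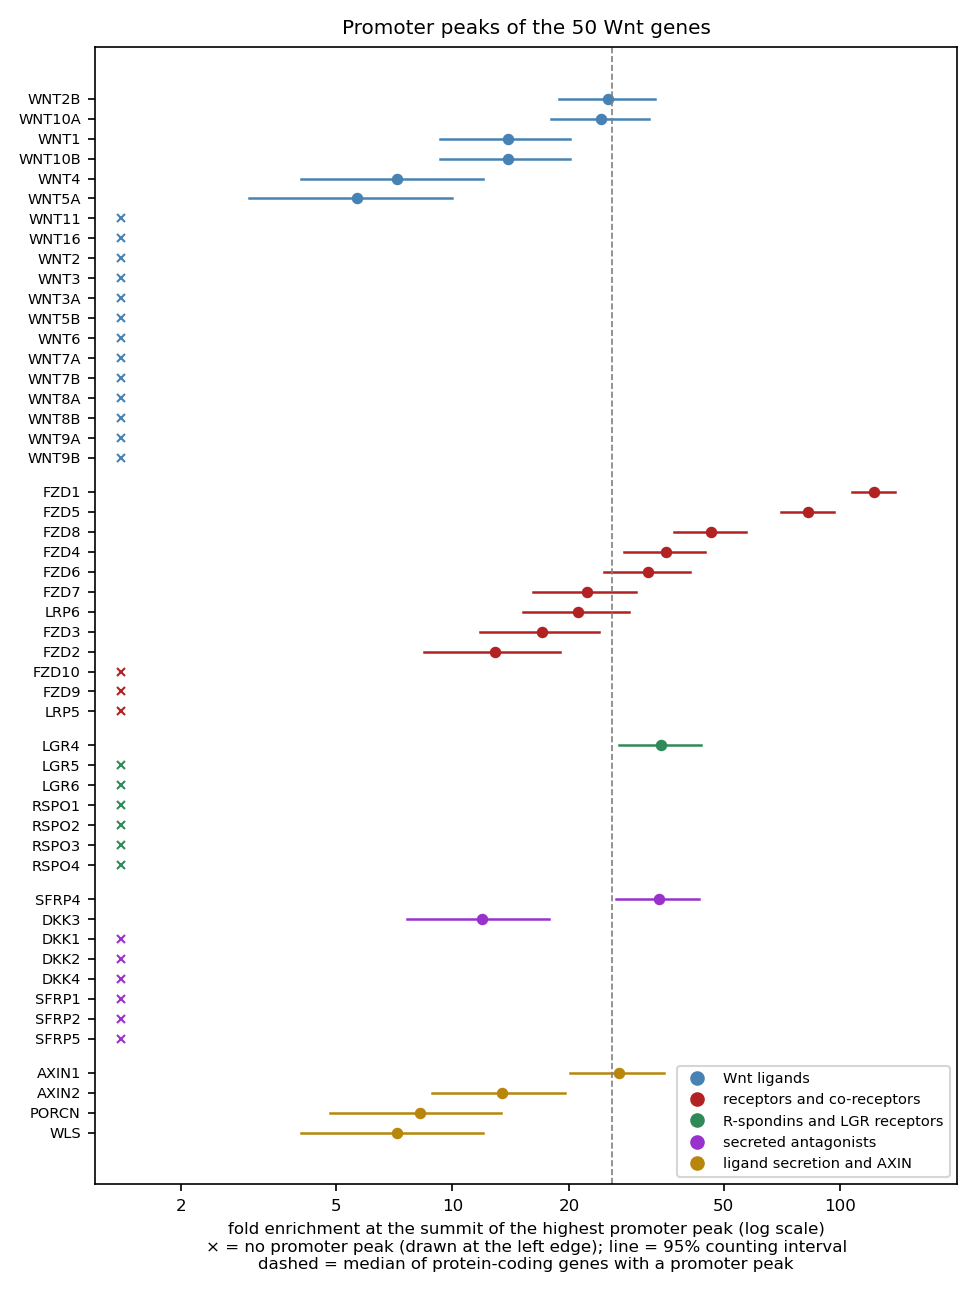
Fold enrichment at the summit of the highest promoter peak (x axis, log scale) for each of the 50 genes, grouped and coloured by role. Points are folds, lines their 95% counting intervals, crosses toward the left edge genes without a promoter peak, and the dashed line the median of 25.8 over protein-coding genes with a promoter peak. FZD1 at 122 and FZD5 at 82.4 stand to the right, and no ligand gene lies to the right of the dashed line.

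Receptor promoter peaks were also wide. The median width of the highest promoter peak was 2179 bp over the 9 receptor genes, 642 bp over the 6 ligand genes and 1196 bp over the 12299 protein-coding genes with a promoter peak. At least 2 kb were covered at 7 of the 9 receptor genes (FZD1, FZD4, FZD5, FZD6, FZD7, FZD8 and LRP6), and LGR4 was the only other gene of the set with such a peak, compared with 13.2% of protein-coding genes with a promoter peak. The limit of 2 kb was chosen after the widths were seen. Width and fold come from the same coverage, so they are not separate observations.

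Among the ligands, 6 genes had a promoter peak, and their folds were all at or below 25.2. The highest was at WNT2B (25.2; 18.8 to 33.3) on chromosome 1, 240 bp before the start of a longer transcript and 42664 bp before the canonical TSS. The canonical TSS of WNT2B had a weaker peak of fold 6.18. WNT10A had a fold of 24.2 (17.9 to 32.1), but the summit lay in exon 4 of the canonical transcript, 272 bp before the TSS of a transcript without an annotated coding sequence, and its canonical promoter had no peak. WNT1 and WNT10B, the neighbours on chromosome 12 that point away from each other, both had a fold of 13.9 at separate summits 894 and 991 bp before their canonical TSS. WNT10B had another peak of fold 7.21 in its exon 1.

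WNT4 and WNT5A had the lowest values of the ligand genes. WNT4 had a fold of 7.21 (4.08 to 12.0) at a pileup of 13 and 234 bp before the TSS. WNT5A, a ligand of the pathway that does not need beta-catenin, had a fold of 5.67 (2.99 to 9.99) at a pileup of 10, the lowest such value of the set, and this summit also lay at the promoter of WNT5A-AS1. Another summit of fold 7.73 was 216 bp downstream of a WNT5A TSS, outside the promoter window. Both genes lost their promoter peak when only peaks with a score above 100 were kept.

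No promoter peak was listed at WNT2, WNT3, WNT3A, WNT5B, WNT6, WNT7A, WNT7B, WNT8A, WNT8B, WNT9A, WNT9B, WNT11 and WNT16. They fell into genes with a summit close by and genes without. The nearest summit was 820 bp from a TSS at WNT16, 1307 bp at WNT11, 1530 bp at WNT9A, 1825 bp at WNT5B and 2019 bp at WNT7B. It was between 5797 and 7483 bp away at WNT6, WNT8A and WNT3A, and between 13885 and 18642 bp away at WNT2, WNT7A and WNT8B. WNT3 and WNT9B, back to back on chromosome 17 with 46 bp between them, had their nearest summits 89831 and 71399 bp away. Both lie in sequence with an alternative copy in hg38, where 10 of 751 protein-coding genes (1.33%) had a promoter peak, compared with 63.7% outside it, so the absence of peaks at these 2 genes cannot be read as closed chromatin.

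The 4 pairs of neighbouring ligand genes differed from each other. WNT1 and WNT10B both had a promoter peak, and the 2 summits in the 6586 bp between them are those promoter peaks. WNT10A had one and WNT6 had none, with 1 summit of fold 10.3 in the 6618 bp between them. WNT3A and WNT9A had none, and 2 summits of fold 10.8 or less lay in the 59065 bp between them. WNT3 and WNT9B had none.

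For R-spondin signalling, a promoter peak was found at the receptor LGR4 alone. LGR4 (ENSG00000205213.14) on chromosome 11 (27365961 to 27472790) had a fold of 34.5 (26.8 to 43.8), its summit 82 bp before the TSS and next to the CCAAT box in the sequence above. This peak was 2097 bp wide, and how exactly its summit is placed was not tested. LGR5 and LGR6 had no promoter peak, and the nearest summits were 6573 and 3198 bp from a TSS. None of the 4 R-spondin genes had one (exact 95% interval up to 60.2%). The nearest summit was 1227 bp away at RSPO2, 1721 bp at RSPO3, 28336 bp at RSPO4 and 38643 bp at RSPO1.

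The secreted antagonists with a promoter peak were SFRP4 and DKK3. SFRP4 (ENSG00000106483.12) on chromosome 7 had a fold of 34.0 (26.4 to 43.2) at 291 bp before the canonical TSS. It was higher than 76.3% of all promoter summits and than 62.5% of those on chromosome 7. DKK3, a divergent member of its family, had a fold of 11.9 (7.62 to 17.7) at the TSS of a transcript inside intron 3, and one of 8.76 at 838 bp before its canonical TSS. DKK1, DKK2, DKK4, SFRP1, SFRP2 and SFRP5 had none. The nearest summit to DKK1 was 3976 bp downstream of a TSS, beyond the gene, and had a fold of 28.9. It was 12450 bp away at SFRP5, 14536 bp at DKK4, 16103 bp at DKK2, 21576 bp at SFRP2 and 85376 bp at SFRP1.

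All 4 genes for ligand secretion and AXIN had a promoter peak. AXIN1 (ENSG00000103126.15) on chromosome 16 (287440 to 352723) had a fold of 26.8 (20.1 to 35.1), 304 bp before the TSS. AXIN2, itself a target gene of beta-catenin and a negative feedback regulator, had a fold of 13.4 (8.85 to 19.5) with the summit 45 bp downstream of the TSS, and 7.73 at 585 bp downstream. Its summit window was the only one of the 28 promoter windows of the set with the TCF/LEF letters CTTTGAT, which were in 0.571% of all promoter windows. PORCN, on the X chromosome, had a fold of 8.24 (4.84 to 13.3), shared with PORCN-DT, and WLS one of 7.21 (4.08 to 12.0). The last 2 peaks rested on pileups of 15 and 13 and were absent among peaks with a score above 200.

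Across the 22 genes the median of the highest promoter fold was 21.6, compared with 25.8 over protein-coding genes with a promoter peak. It was 13.9 for ligands and 31.9 for receptors. The highest summit was upstream of its nearest TSS in 17 of the 22 genes and downstream in 5. Of the 22 genes, 20 had a peak at the canonical promoter, LRP6 and WNT10A being the exceptions. Over all protein-coding genes this held for 10454 of the 12299 with a promoter peak. Among the 22, 6 had 2 promoter peaks (WNT2B, WNT10A, WNT10B, FZD8, DKK3 and AXIN2). For the counts upstream and with 2 peaks, no share over all genes is given here.

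Most of these promoters are rich in G and C, and over all protein-coding genes the share with a promoter peak rose with this content from 24.4% below 50% to 75.0% between 70 and 80%. The median over the 50 genes was 72.7% and over all protein-coding genes 63.7%. Among genes above 63.7%, 20 of 38 Wnt genes had a promoter peak (52.6%; 35.8 to 69.0), against 74.4% of protein-coding genes there. For the ligands this was 5 of 14 and for the receptors 9 of 12. Among genes at or below 63.7% it was 2 of 12, WNT5A and LGR4, compared with 48.8%. In the band above 80% the 6 genes were WNT3A, WNT4, WNT7A, WNT9A, FZD6 and LRP5, and WNT4 and FZD6 had a promoter peak, compared with 71.5% of all protein-coding genes in that band. The median G and C content was 73.2% for the 22 genes with a promoter peak and 69.8% for the 28 without.

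**Figure D3:**
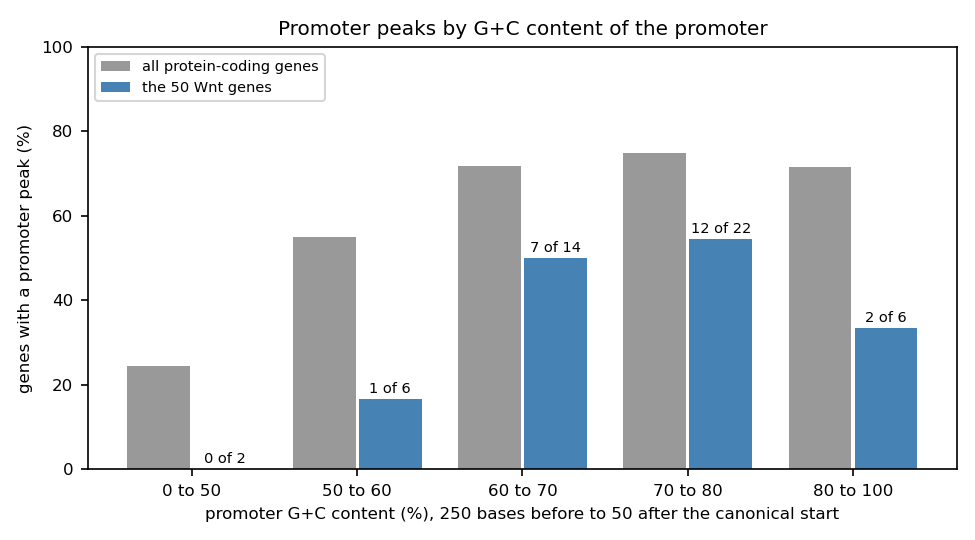
Share of genes with a promoter peak (y axis, %) by the G and C content of the promoter (x axis, %), for all protein-coding genes (grey) and the 50 Wnt genes (blue, with counts). In each band the blue bar is the lower of the pair, with 12 of 22 against 75.0% between 70 and 80% and 7 of 14 against 71.8% between 60 and 70%.

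Gene bodies were examined next, because several genes without a promoter peak had strong sites inside. A summit inside the gene and in no promoter of any gene was counted as a gene-body peak. There were 94 of them in 29 of the 50 genes (58.0%; 43.2 to 71.8), compared with 49.7% of all protein-coding genes, a share that depends on gene length. Over the 2726 kb of the 50 genes this came to 3.45 per 100 kb (2.79 to 4.22), and over all protein-coding genes to 2.90. Their median fold was 10.6, compared with 9.28 over the gene-body summits of all genes, and 36 of the 94 had a pileup under 15. In the canonical transcripts, 24 lay in intron 1, 45 in later introns and 5 in exons, and 20 lay outside. For 22 of the 94 the summit was also in the body of another gene.

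Of the 28 genes without a promoter peak, 16 had a gene-body peak and 12 had neither. Over all protein-coding genes, 7734 had no promoter peak, of which 2713 had a gene-body peak and 5021 had neither. The 12 Wnt genes with neither were WNT3, WNT6, WNT8A, WNT9B, FZD9, FZD10, RSPO1, DKK1, DKK4, SFRP1, SFRP2 and SFRP5. Their lengths ran from 2343 bp at FZD9 to 70649 bp at WNT3, and a short gene has little room for a summit. By role, the density per 100 kb was 4.30 (2.92 to 6.10) in ligands, 2.48 (1.24 to 4.43) in receptors, 4.07 (2.73 to 5.85) in R-spondin and LGR genes, 1.99 (1.03 to 3.47) in antagonists and 4.49 (2.24 to 8.04) in the genes for secretion and AXIN, and all these intervals overlap.

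**Figure D4:**
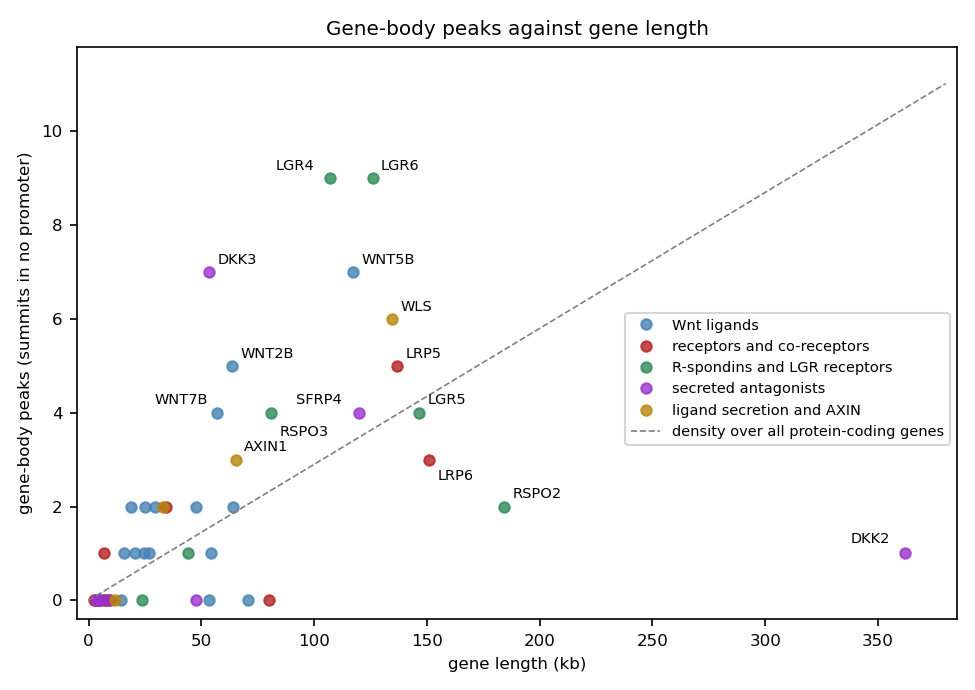
Number of gene-body peaks (y axis) against gene length (x axis, kb) for the 50 genes, coloured by role. The dashed line is the density over all protein-coding genes, 2.90 per 100 kb. LGR4 and LGR6 with 9 peaks each and DKK3 with 7 lie above the line, and DKK2 with 1 lies below it.

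The strongest gene-body peaks were in AXIN1, LGR5 and WNT7B. The bases within 50 bp of the summit are given here for WNT7B, AXIN2, SFRP4 and LRP5 (hg38, on the strand of the gene). They are the highest sites of their gene or, for SFRP4 and LRP5, of the antagonists and receptors that met the rule for printing, which leaves out windows with a UTR and promoters without a RefSeq entry, so that LRP5 stands for the receptors by an intronic peak. Capitals mark TGANTCA (AP-1, N for any base) and ACGTG (the hypoxia response letters).
WNT7B intron 2, chr22:45934777-45934877, minus strand: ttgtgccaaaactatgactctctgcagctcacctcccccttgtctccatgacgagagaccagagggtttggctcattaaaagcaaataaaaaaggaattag
AXIN2 intron 2, chr17:65557414-65557514, minus strand: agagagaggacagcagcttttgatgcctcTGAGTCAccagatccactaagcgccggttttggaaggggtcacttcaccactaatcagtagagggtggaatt
SFRP4 promoter, chr7:37917058-37917158, minus strand: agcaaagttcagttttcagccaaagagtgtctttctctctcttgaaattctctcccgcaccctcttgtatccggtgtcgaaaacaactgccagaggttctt
LRP5 intron 2, chr11:68354519-68354619, plus strand: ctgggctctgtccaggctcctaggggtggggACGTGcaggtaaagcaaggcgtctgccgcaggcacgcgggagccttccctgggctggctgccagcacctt

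In AXIN1 the intronic peak had a fold of 59.8 (49.4 to 71.6), higher than 98.5% of all gene-body summits and 25213 bp downstream of the TSS. It exceeded the promoter peak of the gene, whose interval ended at 35.1. The other AXIN1 peaks had folds of 17.0 and 6.18 in intron 1.

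LGR5 (ENSG00000139292.13) on chromosome 12 (71439798 to 71586310) had its intron 6 peak at a fold of 54.6 (44.8 to 66.0), 117358 bp downstream of the TSS and higher than 97.9% of gene-body summits. This summit lies in partly repeated sequence. Of the 82 words of 20 bases within 50 bp of it, 17 occurred over 100 times in the primary chromosomes, the commonest 3941 times, and 44 occurred once. Whether repeated reads add to this fold was not tested. The 3 other LGR5 peaks had folds from 9.28 to 10.8. LGR6 had 9 gene-body peaks, with folds of 43.3 (34.6 to 53.5) in intron 4, 22.2 and 19.1 in intron 6 and from 6.18 to 10.3 at the others, and 4 of the 9 windows held the AP-1 letters. LGR4 also had 9, of which 7 were in intron 1 and the highest, fold 21.1, was 4318 bp downstream of the TSS.

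WNT7B (ENSG00000188064.10) on chromosome 22 (45920366 to 45977162) had 3 strong intronic peaks, with folds of 46.4 (37.3 to 57.0) in intron 2, 41.7 (33.2 to 51.8) in intron 1 and 33.0 (25.5 to 42.0) in intron 3, whose intervals overlap. They were 42335, 8041 and 51063 bp downstream of the canonical TSS. The first was higher than 96.4% of all gene-body summits and than 99.5% of those on chromosome 22. The window of the first held none of the searched motifs, while a weak peak of fold 7.73, between those of introns 2 and 3, held AP-1, TEAD and RUNX letters.

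Other ligands had strong sites inside the gene too. WNT2B had a fold of 43.3 (34.6 to 53.5) in its exon 5, within a UTR, and 37.1 (29.1 to 46.7) in intron 2, both above its promoter folds, though the interval of the latter overlaps that of its higher promoter peak. WNT10A had 30.4 (23.2 to 39.2) outside the canonical transcript, WNT8B 24.7 (18.3 to 32.7) in intron 4, WNT9A 21.6 in intron 1 and WNT5B 21.1 upstream of its canonical transcript. WNT7A, WNT2 and WNT5A reached 11.9, 15.5 and 14.4. WNT3A, WNT4, WNT11 and WNT16 had 1 gene-body peak each, with folds from 6.70 to 12.4.

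Of the antagonists, DKK3 had 7 gene-body peaks, 6 of them in intron 3, with a highest fold of 30.4 (23.2 to 39.2). SFRP4 had 4 upstream of its canonical transcript, the highest at 29.4, and 3 of them were also in the body of EPDR1. DKK2, the longest gene of the set, had a single peak of fold 12.4. Receptors had few, with 5 in LRP5 (highest 23.7; 17.4 to 31.5), 3 in LRP6, 2 in FZD6 and 1 in FZD1, all but the LRP5 peaks at folds of 6.70 or less, promoter summits being left out. RSPO3 had 4, the highest at 15.5, all of them also inside another annotated gene, RSPO2 had 2 and RSPO4 had 1 at folds of 5.67 or less. AXIN2 had a peak of fold 23.2 (17.0 to 31.0) in intron 2 with the AP-1 letters shown above. WLS had 6, the highest at 20.6, all of them also in the body of GNG12-AS1.

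**Figure D5:**
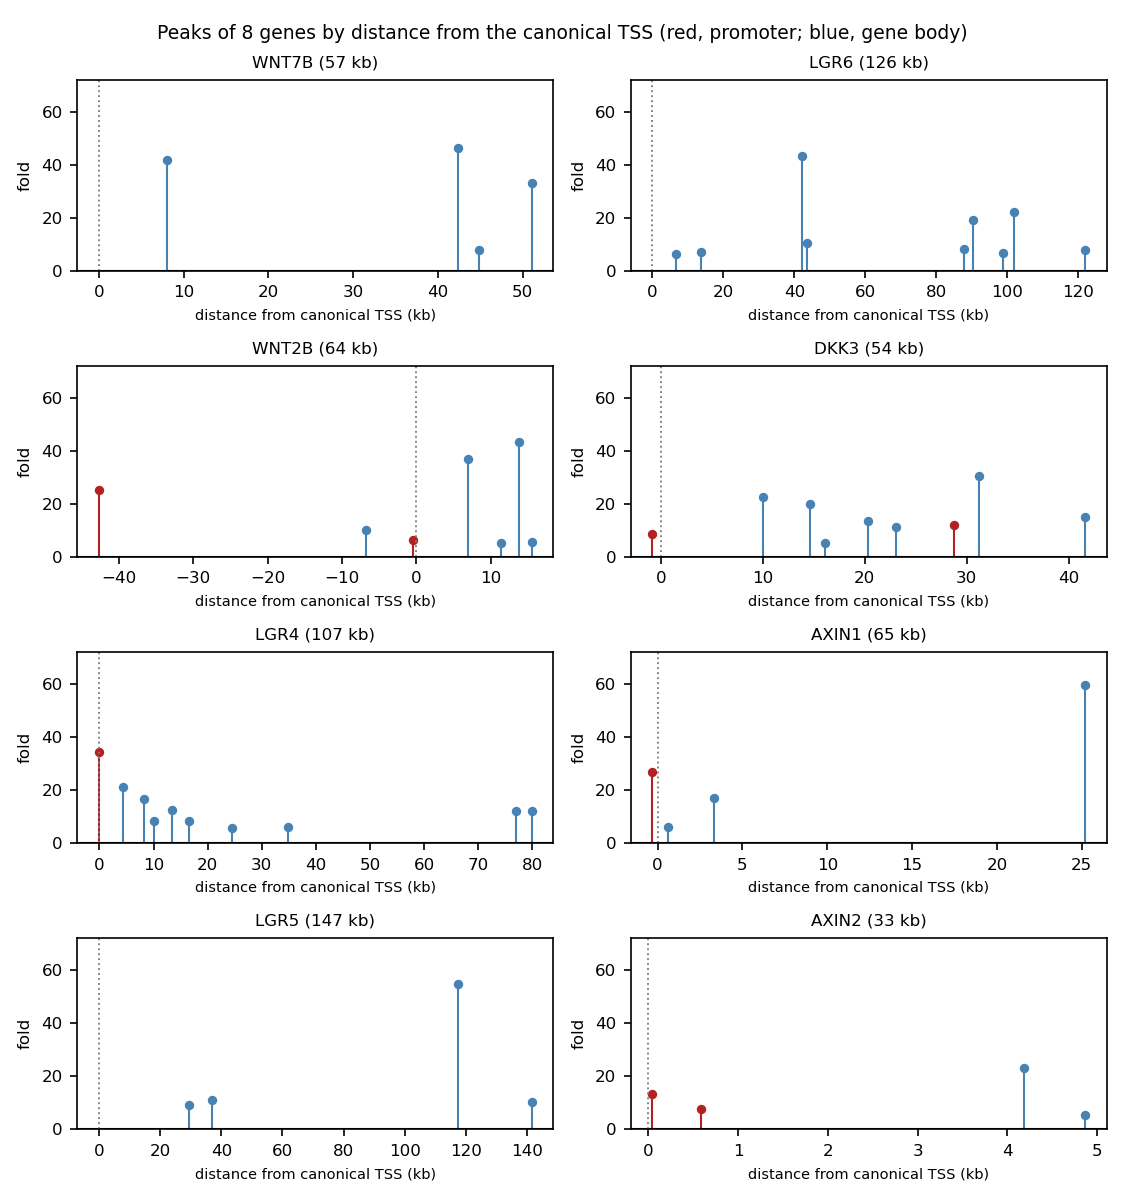
Peaks of 8 of the genes, as fold enrichment (y axis) against the distance of the summit from the canonical TSS in the direction of transcription (x axis, kb). Red marks promoter peaks, blue gene-body peaks and the dotted line the canonical TSS. WNT7B, LGR5 and LGR6 have blue peaks above 40 and no red peak, and in AXIN1 the blue peak at 59.8 is higher than the red one at 26.8.

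The letters under the summits were compared with all summits of the same class, within 50 bp and on both strands. In gene bodies, AP-1 letters were in 22 of 94 windows (23.4%; 15.3 to 33.3), compared with 22.7% of all gene-body windows. RUNX letters (TGTGGT) were in 13.8% against 14.3%, and TEAD letters in 10.6% against 10.3%. CTTTGAT was in 0 of the 94, which allows a share of up to 3.85%, compared with 1.30%. At promoters, AP-1 letters were in 2 of 28 windows against 7.68%, CCAAT in 9 of 28 (32.1%; 15.9 to 52.4) against 15.7% and GGGCGG in 10 of 28 against 29.1%. ETS and TEAD letters, found in 5.11% and 5.56% of all promoter windows, were each in 0 of 28, which allows up to 12.3%. RUNX and hypoxia response letters were each in 1 of 28, against 5.96% and 9.17%. A match is a description of the letters and not evidence of binding, and the lack of a match does not show that a site is absent.

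Other genes of the pathway were counted from a list of 36, most of which act inside the cell or at the membrane. A promoter peak was found at 31 of them (86.1%, with an interval of 70.5 to 95.3), beside 61.4% of all protein-coding genes and 22 of the 50 ligand, receptor and modulator genes. The fold was 24.7 at CTNNB1, the gene of beta-catenin, 43.8 at APC and 80.9 at GSK3B, partners of AXIN in the destruction complex. It was 21.6 at TCF7L2 and 7.21 at LEF1, which carry the signal to DNA. RNF43 and ZNRF3, the ligases that remove Frizzled proteins and on which R-spondins act, had 18.6 and 22.2, and the receptors ROR1, ROR2 and RYK 36.6, 18.0 and 23.7. The 5 without a promoter peak were TCF7L1, WIF1, NKD2, SOST and SOSTDC1.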

How the data were processed

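Per the labels, 786-O cells with an empty vector were profiled by ATAC-seq. The authors used fastp for trimming and Bowtie2 2.3.4.3 for alignment to hg38 (versions from the submitters' processing notes), removed reads of low mapping quality, mitochondrial reads and duplicates, and called peaks with MACS2 2.2.6 on the single library against a genome-wide background. A Tn5 shift of the reads is not given in the sources used here. The deposited values are the fold (a ratio), the −log10 p-value and −log10 q-value, and the score, 10 times the latter, of which the lowest was 52. The recovered pileups, whole to within 1.8e-05, gave exact Poisson intervals, and shares carry Clopper-Pearson intervals. Total depth is not given in the file.

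Summits were placed with GENCODE release 44. The score, promoter window, TSS choice and placement were varied. Repeated sequence was found by alignment of alternative sequences with minimap2 2.31 (at least 10 kb, at most 5% divergence) and by counting 20-base words. Python 3.11.15, pandas 2.3.3 and scipy 1.17.1 were used, and the functions were tested on simulated data. Every gene was named with its promoter peak or the nearest summit, and its gene-body peaks. Sequence windows were the highest of a role or gene outside chromosome 8, without UTR and, at promoters, with a RefSeq entry. The genes and lists were chosen with earlier results of these data known. A marker gene and a pair of summit sequences are not reported here.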

Additional observations from a re-analysis of the deposited data

How the results depend on the processing

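No paired analysis was possible because all values came from a single library. The alternative that leaves out genes in sequence with an alternative copy was chosen after the data were seen. Of the 50 genes it takes out WNT3 and WNT9B alone, so it could hardly move a share beyond its interval, and none moved. The share of the 50 genes went from 44.0% to 45.8% (63.7% of all protein-coding genes). With a score above 200, the share of other pathway genes with a promoter peak fell to 69.4% (52.0% of all protein-coding genes). The share of the 50 genes with a gene-body peak fell to 42.0% (30.9% of all protein-coding genes). The density fell to 1.50 per 100 kb (1.16), and it was 2.38 above 100 (1.85). Fewer peaks remain by construction. WLS, WNT4 and WNT5A lost their promoter peak above 100, and PORCN also above 200. With promoters of 2.5 kb to both sides, the share of the 50 genes rose to 62.0% (70.3% of all protein-coding genes), that of ligands to 57.9%, and the density fell to 2.64 (2.21), since the window takes summits from gene bodies. The genes gained were FZD9, LRP5, RSPO2, RSPO3, WNT5B, WNT7B, WNT9A, WNT11 and WNT16. With 100 bp to each side, where every share rises by construction, RUNX letters were in 21.4% of promoter windows (11.2% of all such windows) and 28.7% of gene-body windows (24.6%), and hypoxia response and CCAAT letters in 9.57% (12.1%) and 19.1% (22.5%) of gene-body windows. Above a score of 200, hypoxia response letters at promoters went from 1 of 28 windows to 0 of 18 (10.1% of all). ETS letters in gene bodies went from 1 of 94 to 0 of 41 (0.676%). With promoter summits counted, the highest fold inside FZD6 went from 6.70 to 31.9 and inside LRP6 from 6.18 to 21.1, their promoter peaks. In all, 112 of 127 alternative values stayed within the interval of the reported value and 15 moved beyond it. Of the 127, 29 are highest gene-body folds of single genes with promoter summits counted, and 2 of these moved. Such a fold changes only where an added summit is higher, so most were bound to stay. The settings reuse the same peaks, so the tally does not show that the results are robust. Small groups have wide intervals, and 36 of the 94 gene-body peaks had a pileup under 15.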

Other observations

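Noncoding genes named after these genes were examined as well. FZD4-DT and PORCN-DT, divergent transcripts, had their highest promoter peak at the same summit as FZD4 (fold 35.6) and PORCN (fold 8.24). WNT5A-AS1 had a promoter peak of fold 7.73 (4.46 to 12.6), which was not at a WNT5A promoter. LGR4-AS1 and FZD10-AS1 had none, although LGR4 itself had a peak of fold 34.5.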
